A study of Mus musculus with 3 samples.

Results

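The cells described here were classical monocytes and Arg1-negative infiltrating macrophages by a marker rule, taken from single-cell RNA sequencing of mouse glioblastoma. The members were selected on measured counts of marker genes. A cell entered when 200 or more genes were detected in it, no more than 20% of its UMIs (unique molecular identifiers, each marking 1 captured transcript) were mitochondrial, and it held at least 1 UMI of Lyz2 and of Csf1r, at least 2 of the 7 genes Ly6c2, Ccr2, Plac8, Chil3, Ms4a4c, Vcan and Fn1, and no UMI of Arg1. Cells with 2 or more of 6 nonclassical monocyte genes (Ear2, Adgre4, Treml4, Cd300e, Fabp4, Eno3), 2 or more of 6 dendritic genes (Cd209a, Flt3, Clec10a, Mgl2, Kmo, Retnla) or 3 or more of 5 microglia genes (P2ry12, Tmem119, Sall1, Gpr34, Olfml3) were left out. A barcode that was also present in another library was left out unless its UMIs were at least 5 times those of the copy. The rule found 156 members among 4269 cells that passed the cell filters, themselves drawn from 6947 deposited barcodes. The libraries came from female wild-type C57BL/6 mice aged 6 to 8 weeks, which had received BT0309 cells, a mouse brain tumour-initiating line from a C57BL/6J animal heterozygous for Trp53 and Nf1 (NPcis) that carries luciferase and GFP, into the right striatum. The niacin group received niacin, vitamin B3, at 100 mg/kg daily into the peritoneum from day 7, and the vehicle control group received saline. At 4 weeks a section of brain around the injection site was dissociated, passed over Percoll and sorted for live cells, with no sort on a surface marker. There was 1 vehicle control library (labelled replicate 2) and 2 niacin libraries, each pooled from several animals, and the tumour line was 1 line.

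Monocytes leave the bone marrow under the control of Ccr2, a chemokine receptor, and the Ly6C-high ("classical") subset is the short-lived form that enters inflamed tissue and tumours and becomes macrophages there. In mouse glioma these cells enter from blood, unlike microglia, which live in the brain from embryonic life. Nonclassical monocytes arise from classical ones under the transcription factor Nr4a1 and patrol the vessel wall. Interferon gamma from lymphocytes is a well known inducer of antigen presentation and of T cell-attracting chemokines in monocytes and macrophages.

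The vehicle control library held 120 members of 1264 cells (9.49%, 95% Clopper-Pearson interval 7.93 to 11.2), niacin 1 held 14 of 1411 (0.992%, 0.543 to 1.66) and niacin 2 held 22 of 1594 (1.38%, 0.867 to 2.08). The share was thus higher in the vehicle control library than in either niacin library, with intervals that did not overlap. These intervals cover counting error only, and with 1 vehicle control library there was no test of niacin against vehicle. Cells with over 20% mitochondrial UMIs, which were removed, numbered 692 in the vehicle control library, 192 in niacin 1 and 169 in niacin 2, and their part in the shares was not tested. Library totals were 8301228, 9373321 and 10359526 UMIs, and the members' median depth was 8330, 10327.5 and 9707 UMIs per cell. With cells thinned to 2000 UMIs and shallower cells left out, the shares were 10.6%, 0.654% and 0.958%. Without thinning but with at least 3 of the 7 classical genes required, they were 8.15%, 0.780% and 0.941%.

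Barcodes were shared widely between the libraries. Of the deposited barcodes, 484 in the vehicle control library, 918 in niacin 1 and 898 in niacin 2 also occurred in another library, and 38, 10 and 10 of the members carried such a barcode. Leaving every shared barcode out gave shares of 7.52%, 0.405% and 0.857%, from 82, 4 and 12 members. With no shared barcode removed the shares were 8.72%, 2.43% and 2.50%, from 132, 44 and 55 members against 120, 14 and 22 under the rule. The rule thus took out a larger part of the niacin members than of the vehicle control members. Without it the gap between the libraries was narrower, in the same direction.

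The label held for most members of the vehicle control library but not for most members of niacin 1. In 18 members at least 10% of all UMIs came from S100a8 and S100a9, the subunits of calprotectin and the main cytosolic proteins of neutrophils, whereas no member lay between 1.64% and 13.4%. There were 2 such S100-rich members in the vehicle control library, 9 of the 14 in niacin 1 and 7 of the 22 in niacin 2. The 6 neutrophil markers were S100a8, S100a9, Retnlg, Ly6g, Mmp8 and Cxcr2, and the first 2 had set these cells apart. Of the 18, 17 carried at least 5 of the 6 and 17 held Ly6g. Ccr2, Ms4a4c and Fn1 were at 0 UMIs in all 18. Camp, a neutrophil granule antimicrobial peptide, stood at 14017, 17646 and 45284 CPM in them, in counts per 1000000 UMIs. Their entry rested in 11 cases on a single Csf1r UMI, and the marker counts go against the name monocyte for them. The 6 neutrophil markers summed to 3684, 267016 and 179978 CPM over all members and to 192, 3581 and 212 over the members left without S100-rich and T-marked cells. Over all members S100a8 alone stood at 1632, 119591 and 85957 CPM and S100a9 at 1889, 129460 and 89379. The drop in the sum thus followed largely from how the cells were picked. A further 3 members of the vehicle control library and 4 of niacin 2 held 2 or more T cell markers. The 131 members left after these 25, called the remaining members here, numbered 115, 5 and 11 and made up 9.10%, 0.354% and 0.690% of cells. Among the remaining members 63 held no neutrophil marker and none held more than 3. Totals of genes counted are given with all members and with the remaining members, and many single-gene values and list counts with the remaining members only. A value of the remaining members in the niacin libraries rests on 5 and 11 cells, of which 1 cell supplied 52.2% of the niacin 1 UMIs.

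**Figure D1:**
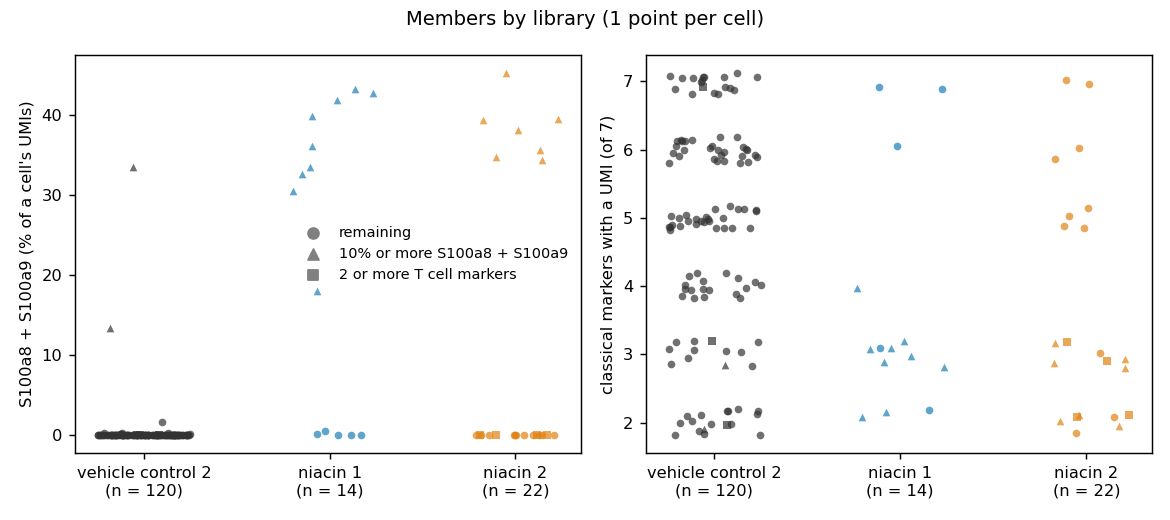
Each point is 1 member, in the vehicle control library, niacin 1 or niacin 2. The left panel gives the percent of a cell's UMIs from S100a8 and S100a9 and the right panel the number of the 7 classical genes with a UMI (points jittered). Triangles are S100-rich members, squares are T-marked members and circles are remaining members. The triangles hold 9 of 14 niacin 1 members but 2 of 120 vehicle control members.

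The genes of the rule chose the members, so their levels are a description. Ly6c2, the Ly6C surface antigen that defines the subset (mm10 chr15:75108158-75111970, minus strand), stood at 2564 CPM in the vehicle control library, 1232 in niacin 1 and 2096 in niacin 2 over all members, and at 2645, 1838 and 3523 over the remaining members. Ccr2 (mm10 chr9:124101950-124113557, plus strand) stood at 1014, 586 and 752 CPM over all members and at 1001, 1710 and 1868 over the remaining members. So the order of the libraries for Ccr2 turned when the S100-rich and T-marked cells were removed. Plac8, a marker of classical monocytes, stood at 3579, 2446 and 2673 CPM in the remaining members, and Ms4a4c at 1198, 544 and 1118. Chil3, a secreted chitinase-like protein of immature monocytes and alternatively activated macrophages, went the other way at 1013, 4732 and 2975 CPM, and Lyz2, the lysozyme gene, at 9184, 20622 and 26025. Fn1, fibronectin, stood at 792, 863 and 1264 CPM and Csf1r, the macrophage colony-stimulating factor receptor, at 638, 512 and 593, 2 genes with close levels. Vcan, a matrix proteoglycan, was uneven at 128, 607 and 89.5 CPM. Of the remaining members 72, 3 and 8 carried at least 5 of the 7 classical genes.

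**Figure D2:**
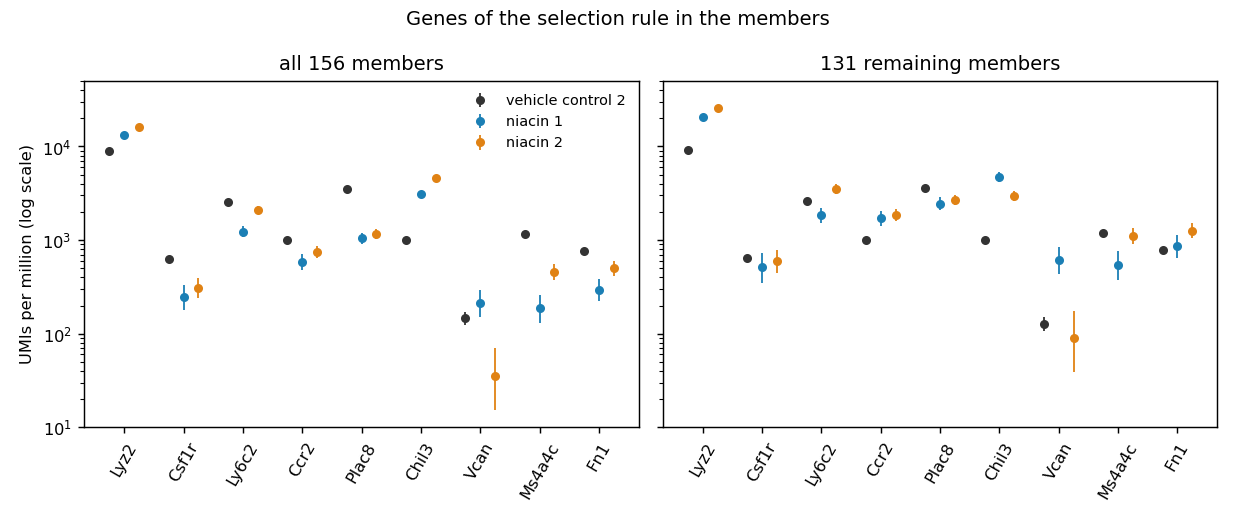
CPM (log scale) of the genes of the selection rule in all 156 members (left) and in the 131 remaining members (right), 1 point per library with the 95% Poisson interval of its summed count. Ccr2 and Fn1 were lower in the niacin libraries over all members, and higher than or within the interval of the vehicle control library over the remaining members.

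At the edge of the rule, 27 members carried exactly 2 classical genes (17, 3 and 7) and 24 cells that met the other criteria carried exactly 1 (11, 8 and 5). Lyz2 stood at 5939, 6733 and 4691 CPM just inside and at 2815, 1213 and 6380 just outside. A UMI of Lyz2 was found in 20.8%, 9.09% and 17.2% of T cells, which should lack it, at median depths of 5435, 4878 and 6283.5 UMIs. After thinning to 2000 UMIs a Lyz2 UMI was found in 7.25%, 2.74% and 4.81% of T cells and in 96.0%, 100% and 78.9% of members. The step that asked for 2 classical genes took 1673 cells with Lyz2 and Csf1r to 381, and the exclusion of nonclassical, dendritic, microglial and Arg1-positive cells took these to 272, 243, 201 and 156. A single Lyz2 and a single Csf1r UMI were the basis for 12 members (9, 0 and 3).

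The members were first compared with the nonclassical monocyte gate of the same libraries (27, 66 and 50 cells with 2 or more of the 6 nonclassical genes). In the remaining members 6 of 7 MHC class II genes and 4 of 8 complement genes tested were higher, and 6 of 14 recruitment and adhesion genes and 5 of 16 myeloid transcription factors were lower. With all members these counts were 0, 3, 4 and 2. In fits of the remaining members the S100-rich and T-marked cells were also taken out of the gate they were compared with, which left 27, 66 and 49 nonclassical cells. Counts were summed per gate and library and fitted with edgeR's quasi-likelihood test with the library as a block, without the genes of the rule. Since both gates were cut from the same cells, these p-values concern other genes and not whether the 2 gates exist. They rest on 3 libraries and on a spread that edgeR moderates over all genes. Their size is thus not a measure of agreement between libraries alone. With all members, 28 of 4723 genes were higher (0.593% of genes tested) and 54 lower (1.14%) at an adjusted p under 0.05. Over the remaining members, 87 of 4962 were higher (1.75%) and 145 lower (2.92%).

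S1pr5, the sphingosine-1-phosphate receptor that nonclassical monocytes use to leave the bone marrow, had no UMI in the remaining members of any library against 104, 166 and 148 CPM in the nonclassical gate. That put it at least 52.2-fold lower in the members (adjusted p = 0.000564). Ace, angiotensin-converting enzyme, stood at 8.58, 32.0 and 0 CPM in the remaining members of the vehicle control library, niacin 1 and niacin 2, and at 539, 921 and 871 in the nonclassical gate (log2 fold change -5.86 ± 0.48 SE, adjusted p = 4.86e-05). Cd36, a scavenger receptor for fatty acids and lipoproteins, stood at 2.14, 16.0 and 22.4 CPM against 371, 361 and 393 (-5.84 ± 0.58, adjusted p = 0.000127). Neither gene's values overlapped between the gates. Nr4a1 stood at 22.5, 0 and 44.7 CPM against 591, 993 and 904 (-4.80 ± 0.44, adjusted p = 0.000101). Pparg, a lipid-sensing nuclear receptor, fell by 5.88 on the log2 scale (adjusted p = 0.00074), and Slc12a2, a sodium-potassium-chloride cotransporter, fell by 7.33 (adjusted p = 4.44e-05). Tgfbr3, Dnah12, Tmem26 and Nrarp completed the 10 lowest genes. S1pr5, Ace, Cd36, Nr4a1, Pparg and Slc12a2 were also called with all members, at log2 fold changes of -8.52, -6.04, -5.92, -5.04, -6.15 and -5.54. In that fit the calls of all 6 were lost when niacin 2 was left out, with the direction kept, and no lower gene passed, against 197 at an unadjusted p under 0.05 in edgeR. Over the remaining members and without niacin 2, 82 genes were lower.

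Of the 14 recruitment and adhesion genes tested, 6 were lower in the remaining members and 1 higher. Itgal, the alpha chain of LFA-1, stood at 346, 95.9 and 246 CPM against 1044, 1782 and 1537 (-2.49 ± 0.39, adjusted p = 0.00388). Itga4, Itgb2, Cd44 and Cx3cr1, the fractalkine receptor by which nonclassical monocytes survive and crawl, fell by 1.14, 1.06, 1.20 and 1.13. Among 16 myeloid transcription factors 5 were lower and 1 higher. Klf2 and Klf4, zinc-finger factors of monocyte quiescence and differentiation, fell by 1.75 and 1.87, and Cebpa, a factor of early myeloid differentiation, was higher by 1.75 (adjusted p = 0.0217). With all members, 4 of the 14 recruitment genes and 2 of the 16 factors were lower and none higher.

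F13a1, the coagulation factor XIII A chain made by monocytes and some macrophages, stood at 198, 1007 and 1007 CPM in the remaining members against 115, 52.5 and 30.6 in the nonclassical gate (3.40 ± 0.64, adjusted p = 0.0111). With all members its log2 fold change was 2.81 and did not pass (adjusted p = 0.0693). Thbs1, thrombospondin 1, stood at 542, 208 and 168 CPM against 156, 12.6 and 7.06 (2.98 ± 0.47, adjusted p = 0.00388). Each gene was higher in the members within every library, which was a condition for naming it. Hist1h2ap, Hist1h2ae, Stmn1, Mki67 and Cenpa, genes of dividing cells, were higher by 5.88, 5.58, 5.08, 4.21 and 3.51 on the log2 scale. Mki67, the Ki-67 proliferation antigen, stood at 80.4, 48.0 and 324 CPM against 14.9, 4.20 and 4.71, but its UMIs were found in 15 of 115, 1 of 5 and 2 of 11 remaining members. The 5 niacin 1 and 11 niacin 2 cells therefore set these values through 1 and 2 cells. Gas7, Aoah and Tbxas1 completed the 10 highest genes.

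Of the 7 MHC class II genes tested, 6 were higher in the remaining members and none was lower (median log2 fold change 1.63, against 0.0101 over all genes tested). H2-Ab1, a class II beta chain that presents peptides to CD4 T cells, stood at 4650, 368 and 962 CPM against 903, 267 and 247 (1.77 ± 0.33, adjusted p = 0.0109). H2-Eb1, H2-DMa and Ciita, the class II transactivator, were higher by 2.30, 1.63 and 2.07. In niacin 1 Ciita had no UMI in the remaining members, so it was not higher in that library. There H2-Eb1 had UMIs in 1 of 5 cells and H2-Ab1 in 2 of 5. A single niacin 1 cell of 1870 UMIs held 22 UMIs of H2-Ab1 and 11 of C1qa. Of 8 complement genes, 4 were higher, among them C1qa (676, 224 and 548 CPM against 182, 46.2 and 25.9) and C3 (821, 543 and 626 against 338, 124 and 155). C1qa is also abundant in microglia, at 6073, 8701 and 8620 CPM, and the part of free microglial RNA in this difference was not tested. Of 22 interferon response genes 3 were higher, with Isg15, a ubiquitin-like protein, at 1134, 79.9 and 559 CPM against 461, 18.9 and 47.1 (2.31 ± 0.43, adjusted p = 0.00960). With all members 0 of the 7 class II genes passed edgeR's threshold, with a median log2 fold change of 1.14, 3 of 8 complement genes and 1 of 19 interferon genes were higher, and the largest positive fold was that of Retnlg, a neutrophil gene (7.86 ± 1.42, adjusted p = 0.0384).

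**Figure D3:**
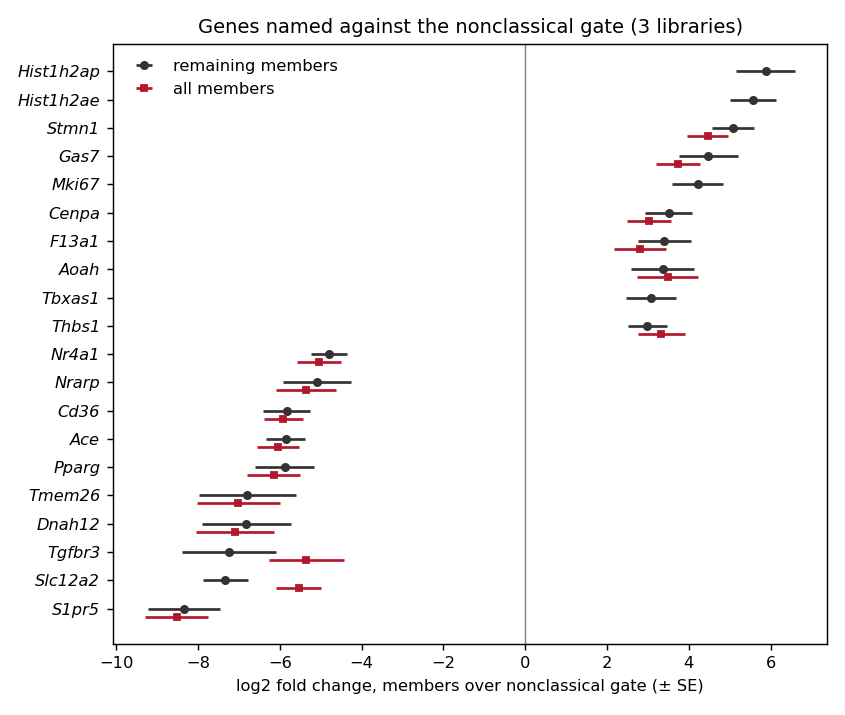
Log2 fold change (± SE) of the 20 genes with the largest changes between the remaining members and the nonclassical gate over 3 libraries (circles), with the same genes in all members (squares). Genes without a square fell below the count filter in that fit. S1pr5, Ace, Cd36 and Nr4a1 lie between -8.52 and -4.80 in both fits, and F13a1 lies at 3.40 and 2.81.

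The second comparison was with Cd209a dendritic-like cells (2 or more of the 6 dendritic genes), for which only the vehicle control library (19 cells) and niacin 2 (12 cells) held enough cells. In the remaining members, set against 18 and 12 dendritic-like cells, 4 of 7 matrix and angiogenesis genes, 3 of 22 interferon genes and 2 of 5 iron and heme genes were higher and none of these lists held a lower gene, and of 7 complement genes 1 was higher (median log2 fold change -0.27). Over the remaining members 68 of 3591 genes were higher (1.89%) and 36 lower (1%), and with all members 74 of 3723 were higher (1.99%) and 42 lower (1.13%). Klrd1, the CD94 receptor chain, stood at 6.43 and 0 CPM in the vehicle control library and niacin 2 against 96.0 and 183 (-4.16 ± 0.66, adjusted p = 9.97e-08). Ccl24, eotaxin-2, stood at 104 and 0 CPM against 451 and 972 (-3.21 ± 0.44, adjusted p = 3.86e-10). Both genes were lower in the members of both libraries, which was a condition for naming them. Batf3 and Wdfy4, needed for conventional dendritic cells and for cross-presentation, fell by 2.61 and 2.15, and Dpp4 fell by 3.23. Clec4e, the mycobacterial cord factor receptor Mincle, stood at 149 and 190 CPM against 4.17 and 0 (5.93 ± 0.82, adjusted p = 3.86e-10). Hmox1, heme oxygenase, stood at 144 and 570 CPM against 25.1 and 15.7 (3.72 ± 0.51, adjusted p = 3.86e-10). C3, Thbs1, Apoe and Cebpb were higher by 3.11, 3.72, 1.56 and 1.50.

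MHC class II shows how far this comparison rests on which members enter. With all members 9 of 10 class II genes were lower than in the dendritic-like cells (median log2 fold change -1.77, against 0.0138 over all genes), and with the remaining members 1 of 10, H2-DMb2, with the list's median at -1.29. H2-Ab1 stood at 4650 and 962 CPM in the remaining members against 4667 and 5331, so the libraries differed and the gene did not pass (-1.23 ± 0.45, adjusted p = 0.122). Without the library as a block, edgeR called 0 genes higher and 0 lower with all members, against 77 and 54 at an unadjusted p under 0.05, and after thinning it also called 0 and 0, against 36 and 27. With at most 10% mitochondrial UMIs it called 5 and 0, against 198 and 140.

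Against the microglia gate (302, 781 and 834 cells), the members were higher for most interferon response, MHC class I, S100 and glycolysis genes, and lower for most complement, macrophage maturation and immediate early genes. With the remaining members 1293 of 9263 genes were higher (14%) and 1291 lower (13.9%), and with all members 1352 of 9285 were higher (14.6%) and 1205 lower (13%). The median log2 fold change of all genes was -0.150 with all members (-0.256 with edgeR's RLE factors). F13a1 stood at 198, 1007 and 1007 CPM against 0.54, 0.747 and 1.60 (9.64 ± 0.52, adjusted p = 8.57e-71). Gpr141, an orphan receptor, and F10, coagulation factor X, were higher by 9.15 and 9.06. Cybb, the gp91phox subunit of the phagocyte NADPH oxidase, stood at 1652, 1279 and 1689 CPM against 104, 17.4 and 25.8 (5.57 ± 0.38, adjusted p = 7.10e-45). S100a4 and Itgal were higher by 7.36 and 4.82. For each of these genes the lowest member value lay above the highest microglial value. Of 22 interferon genes 21 were higher, of 12 MHC class I genes 7 (5 with all members), of 15 glycolysis and hypoxia genes 12, and of 13 S100 and granule genes 10, with none of the 4 lists holding a lower gene.

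Nav3, Lrrc3 and Adamts1 had no UMI in the remaining members. Nav3 held 3964 UMIs in the microglia gate, which put the members at least 139-fold lower. Siglech, a microglial lectin, stood at 9.65, 16.0 and 0 CPM against 1267, 1496 and 1450 (-6.92 ± 0.50, adjusted p = 2.13e-40). Cx3cr1, Trem2 and Mertk, receptors for fractalkine, lipids and dying cells, fell by 4.08, 3.46 and 3.63. Of 18 macrophage maturation genes 13 were lower and 2 higher, of 8 complement genes 6 were lower and 2 higher, and of 13 immediate early genes 11 were lower and 1 higher. Class II genes were mixed, with 5 of 10 higher and 2 lower. With all members the 10 highest genes were mostly neutrophil genes, with Stfa2l1 at 12.28, Cd177 at 11.42 and Camp at 10.25 on the log2 scale, whereas Camp was at 0.41 in the remaining members and did not pass. Prkcd, the gene of protein kinase C delta, stood at 975, 687 and 626 CPM in the remaining members against 377, 249 and 232 in microglia (1.62 ± 0.33, adjusted p = 1.25e-05). Against nonclassical monocytes it was not called (0.25, adjusted p = 0.714).

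Inside the vehicle control library the members were set beside the 45 cells that met the same rule but for 1 or more Arg1 UMIs. All 45 lay in the vehicle control library and none in the niacin libraries, and 8 of them held exactly 1 Arg1 UMI. The Arg1-positive cells were deeper, with median UMIs of 12535 against 8336 in the 115 remaining members. Under 2000 UMIs lay 3 of 45 against 19 of 115, and 25 against 37 carried a shared barcode. A count of 0 Arg1 UMIs depends on depth, and the part of depth in these differences was not tested. Arg1 is arginase, an enzyme that depletes arginine and marks suppressive tumour macrophages. With 1 library there was no test, and a gene with at least 30 UMIs was counted when it differed by at least 2-fold. Taking the 115 remaining members, 193 of 5663 genes were higher in the members (3.41%) and 162 lower (2.86%), and with all 120 members 214 of 5769 were higher (3.71%) and 167 lower (2.89%). Chemokine genes were among the largest differences, with 7 of 13 lower in the remaining members and 1 higher. Ccl7 stood at 15.0 CPM in the remaining members against 436 in the Arg1-positive cells (29.1-fold), Ccl24 at 104 against 1094 and Ccl2 at 185 against 1075. Spp1, osteopontin, stood at 34.3 against 731 CPM. Of 16 glycolysis and hypoxia genes 5 were lower and none higher, with Pgk1 at 517 against 1163 CPM, Ldha at 468 against 1014 and Bnip3 at 129 against 348. Vegfa, an angiogenic factor, stood at 115 against 309 and Nos2, inducible nitric oxide synthase, at 12.9 against 88.4. Hilpda, Il7r, Adamdec1, Ctsk and Cdh1 completed the 10 lowest genes.

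The largest folds in favour of the members, those of Stmn1 (57.9 against 1.96 CPM), Hist1h1b, Hist1h2ab, Hist1h2ae and Hist1h2ap, genes of dividing cells, rested on few cells. Stmn1 had UMIs in 7 of 115 remaining members, and 1 cell held 44 of its 54 UMIs. Top2a, at 37.5 against 0 CPM, had UMIs in 3 cells, 1 of which held 33 of 35, and a single remaining member held all 34 UMIs of Hist1h2ab. Kdr, the VEGF receptor 2, stood at 53.6 against 1.96 CPM and Klf2 at 74.0 against 7.86. Cxcl9, an interferon gamma-induced chemokine that draws T cells, stood at 1792 against 666 CPM (2.69-fold) and Gbp5 at 401 against 189. The rest of the interferon list lay within 2-fold, and so did all 7 MHC class II genes counted, with Cd74 at 8746 against 8275 CPM. Over all 120 members the largest positive folds were those of Ngp, Ltf, S100a9, Camp and S100a8, from 2 S100-rich cells.

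**Figure D4:**
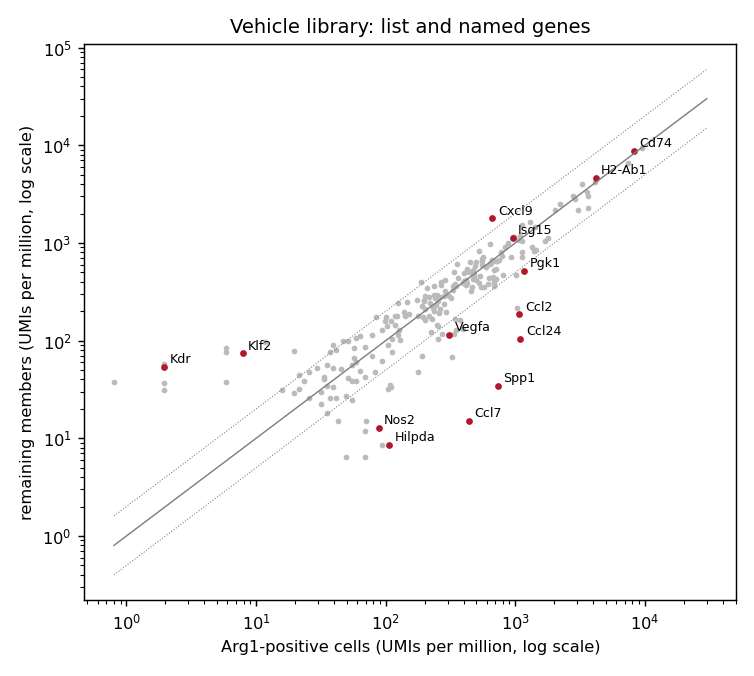
Vehicle control library, list genes and named genes as CPM (log scales) in the 45 Arg1-positive cells (x) and the 115 remaining members (y). The solid line marks equal levels, the dotted lines 2-fold, and a gene with no UMI is drawn at the axis floor. Ccl7, Spp1, Ccl24 and Ccl2 lie below the lower dotted line, Cxcl9, Klf2 and Kdr above the upper one, and H2-Ab1, Cd74 and Isg15 between them.

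The members also differed among themselves in Ly6c2, and 71 vehicle control members held a Ly6c2 UMI and 30 did not after thinning each to 2000 UMIs (69 and 27 of the remaining members). Ly6c2-positive cells were deeper before thinning, with median UMIs of 11431 against 3893, so depth moves with this split and its part was not tested. With at most 10% mitochondrial UMIs allowed, 57 members held a Ly6c2 UMI and 16 did not, against 71 and 30. Mitochondrial content thus also moves with the split, and its part was not tested. No replicated fit could be made because the niacin libraries held too few cells. Over all thinned members, 106 of 1221 genes were at least 2-fold higher in Ly6c2-positive cells (8.68%) and 51 lower (4.18%). Among the remaining members, 105 of 1134 were higher (9.26%) and 32 lower (2.82%). Isg15 stood at 1217 against 315 CPM, Ly6a, an interferon-inducible surface antigen, at 1123 against 296, Lgals3, galectin 3, at 949 against 185, and Fabp5, a fatty acid-binding protein, at 659 against 55.6. Of 20 interferon genes 8 were higher and none lower, against 0 of 7 class II genes. The median log2 ratio of all genes counted was 0.168.

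Niacin against vehicle was described by 2 ratios, niacin 1 and niacin 2 each over the 1 vehicle control library, so the ratios share it and an effect of niacin cannot be told apart from a feature of that library. A gene with at least 30 UMIs was counted when both niacin libraries lay at least 2-fold on the same side. Over all members 199 of 5430 genes were higher in niacin (3.66%) and 1243 lower (22.9%). Over the remaining members 150 of 4857 were higher (3.09%) and 457 lower (9.41%). The S100-rich and T-marked cells were removed together, and their separate parts in this change were not tested. The median log2 ratio over all genes was -0.774 and -0.480 with all members and -0.0787 and -0.0763 with the remaining members. With TMM scaling these medians were -0.400 and -0.261 over all members, where 285 genes were higher and 825 lower, and -0.345 and -0.338 over the remaining members, where 74 were higher and 692 lower. Of the interferon genes 20 and 19 of 22 and of the class II genes 7 and 7 of 7 were then lower, over all and over the remaining members.

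The genes highest in niacin over all members were those of neutrophil granules. S100a8 (mm10 chr3:90668978-90670035, plus strand) stood at 1632 CPM in the vehicle control library, 119591 in niacin 1 and 85957 in niacin 2, and Camp at 174, 11604 and 20413. Lcn2, Wfdc21, S100a9, Ngp, Itgb2l, Fcnb, Mgst2 and Retnlg completed the 10. Of these 10, none was among the 10 highest in the remaining members, and the number of S100 and granule genes counted as higher went from 10 of 14 to 4 of 11. In the remaining members F13a1 was 5.08-fold higher in both niacin libraries, with a UMI in 35 of 115, 3 of 5 and 8 of 11 cells. Prtn3, proteinase 3 of promonocytes and neutrophils, stood at 11.8, 735 and 369 CPM, from 6, 2 and 1 cells, and Ifitm6 at 114, 528 and 559 CPM. Samsn1, AI839979, Rasgrp2 and Selenoh were also among the 10 highest. So was Mmp8, 1 of the 6 neutrophil markers, at 15.0, 384 and 101 CPM, from 10, 2 and 6 cells. Hbb-bs, a haemoglobin chain, stood at 11.8, 208 and 212 CPM and Ttr, transthyretin of the choroid plexus, at 32.2, 160 and 168. Hbb-bs went the same way in T cells (9.99, 437 and 208 CPM), and so did Ttr (42.9, 274 and 138).

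Of 22 interferon response genes 20 were counted as lower in niacin over all members and 17 over the remaining members, none higher, with median log2 ratios of -2.56 and -1.78 in the latter. Without the remaining members whose barcode was shared between libraries the count was 2 of 22. Among the 10 lowest genes of the remaining members, Cxcl9 (mm10 chr5:92321347-92328079, minus strand) stood at 1792 CPM in the remaining vehicle control members, with a UMI in 54 of 115, and was at 0 in all 5 and all 11 niacin members, at least 37.4-fold and 53.4-fold lower. Gbp2, a guanylate-binding GTPase of cell-autonomous immunity (mm10 chr3:142620602-142638008, plus strand), stood at 1510, 79.9 and 55.9 CPM with a UMI in 79, 1 and 2 cells. Tgm2, transglutaminase 2, stood at 1053, 16.0 and 11.2 CPM with a UMI in 82, 1 and 1 cells. Ly6a stood at 1031, 0 and 0 CPM, AW112010 at 1436, 32.0 and 44.7, and AA467197 at 675, 0 and 0. Igtp, Ly6i, Gbp5 and Cd300lf completed the 10. For each of these the vehicle control value lay above the upper 95% Poisson bound of both niacin values. In the remaining members Isg15 stood at 1134, 79.9 and 559 CPM and Cxcl10, a T cell chemokine, at 573, 0 and 257, so niacin 2 lay between niacin 1 and the vehicle control library for both. Ifitm3, an antiviral membrane protein, stood at 2839, 3917 and 3478 CPM and was not lower.

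Of 7 MHC class II genes counted, 7 were lower over all members and 7 over the remaining members (median log2 ratios of the latter -3.51 in niacin 1 and -1.46 in niacin 2), and 0 of 7 once remaining members with a barcode shared between libraries were left out, as detailed after the comparison of gates. H2-Ab1 stood at 4650, 368 and 962 CPM in the remaining members, Cd74, the class II invariant chain, at 8746, 767 and 3210, and Ciita at 366, 0 and 134. Of 12 MHC class I genes 10 were lower, with B2m at 6521, 2014 and 2136 CPM and H2-K1 at 3351, 1215 and 1141. Of 16 glycolysis and hypoxia genes 7 were lower, with Vegfa at 115, 0 and 0 CPM. The phagocyte oxidase list did not share this, with 0 of 7 genes counted in either direction over the remaining members (2 lower with TMM scaling) and Cybb at 1652, 1279 and 1689 CPM. Prkcd stood at 975, 687 and 626 CPM, within 2-fold. Hcar2, the niacin receptor GPR109A, stood at 40.7 CPM in the vehicle control library and was at 0 in both niacin libraries, where 3 counts would have been 48.0 and 33.6 CPM.

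The interferon differences were not particular to the members, and the class II counts varied between gates. In the nonclassical gate 20 of 21 interferon genes and 6 of 7 class II genes were lower in niacin, in microglia 19 of 22 and 5 of 10, and in T cells 9 of 21 and 0 of 5. The Cd209a dendritic-like gate, with 2 cells in niacin 1, had 16 of 19 and 1 of 9 (class II medians -2.22 and 0.204). Of all genes counted, 324 of 5160 were lower in the nonclassical gate, 335 of 10617 in microglia and 449 of 7358 in T cells. The dendritic-like gate had 299 of 2553 and the remaining members 457 of 4857. Cxcl9 stood at 1200, 0 and 0 CPM in the nonclassical gate and at 111, 0 and 1.36 in microglia. Gbp2 stood at 1014, 25.2 and 44.8 CPM in the nonclassical gate, at 96.7, 15.4 and 12.1 in microglia and at 177, 40.6 and 60.2 in T cells. MHC class I counts also varied between gates, with 10 of 12 genes lower in the remaining members against 2 of 12 in the nonclassical gate. They were 5 of 11 in dendritic-like cells, 6 of 12 in microglia and 1 of 12 in T cells. H2-K1 stood at 3395, 2647 and 2803 CPM in the nonclassical gate. Whether these counts differ between gates was not tested.

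**Figure D5:**
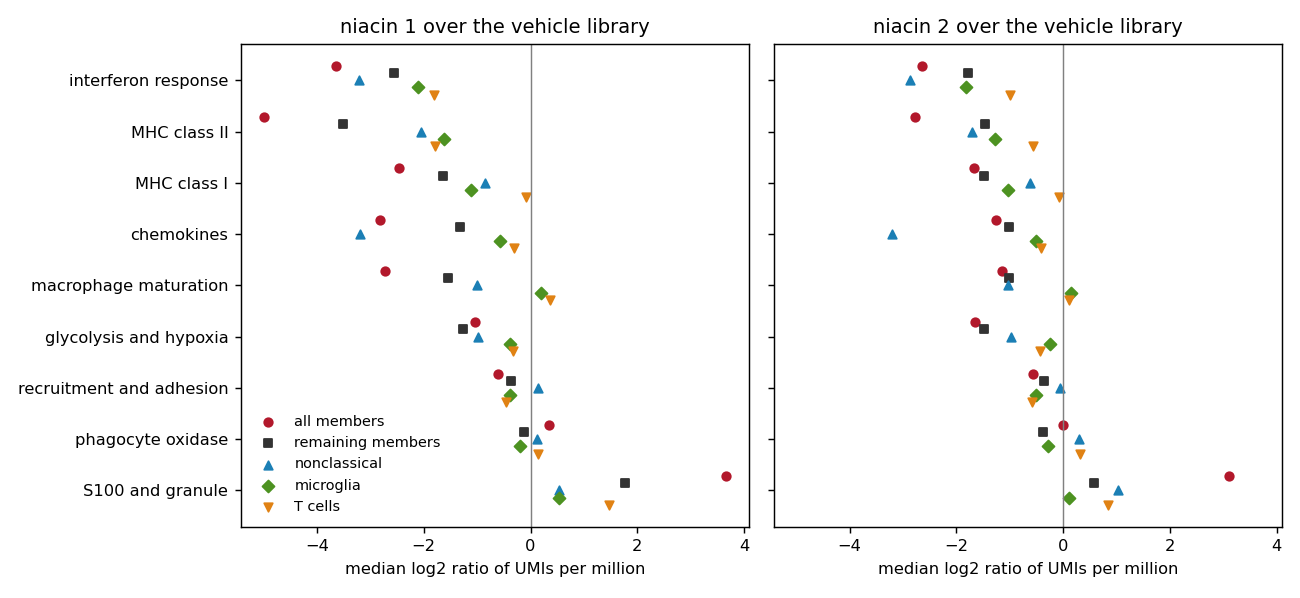
Median log2 ratio of CPM over the genes of each list, niacin 1 (left) and niacin 2 (right) over the vehicle control library, in all members, remaining members, nonclassical monocytes, microglia and T cells. The interferon response medians lie below 0 in all 5 sets of cells, at -2.56 and -1.78 in the remaining members, and the S100 and granule median of all members is the highest value in both panels.

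The niacin differences rested on few cells, many of them with a barcode that also occurred in another library. Of the remaining members 3 of 5 in niacin 1 and 5 of 11 in niacin 2 carried such a barcode, against 37 of 115 in the vehicle control library. Without them 78, 2 and 6 cells were left, the niacin cells with 3746 and 13905 UMIs, and 0 of 7 class II genes and 2 of 22 interferon genes were lower. Cd74 then stood at 8048, 7742 and 14024 CPM and H2-Ab1 at 4289, 5873 and 5178, whereas H2-DMa stood at 540, 267 and 647. The niacin values were uneven between cells. In niacin 1 one cell of 1870 UMIs held all 22 H2-Ab1 UMIs and the other, of 1876, held 0. In niacin 2 the 6 cells held 0, 4, 7, 8, 0 and 53 H2-Ab1 UMIs. Mitochondrial UMIs made up 2.41% and 19.2% in these niacin 1 cells. In the 6 niacin 2 cells, in the same order, they made up 13.9%, 15.2%, 11.7%, 19.7%, 18.2% and 1.03%. The part of mitochondrial content in these counts was not tested. The cell highest in H2-Ab1 in each niacin library carried exactly 2 classical genes and 11 and 35 UMIs of C1qa. The class II level without shared barcodes thus rested largely on 1 cell per niacin library. Cxcl9 stood at 1278 CPM and remained at 0 in both niacin libraries, and Gbp2 stood at 1191, 0 and 216 CPM from 452, 0 and 3 UMIs. At these depths 3 counts amounted to 801 CPM in niacin 1 and 216 in niacin 2, and the vehicle control level was at least 2-fold over that for 1 and 15 of the 22 interferon genes and for 4 and 6 of the 7 class II genes. A difference was thus not detectable for most interferon genes in niacin 1. With all members and every shared barcode removed (4 and 12 niacin cells), 15 of 22 interferon and 6 of 7 class II genes were lower. Only 2 and 6 of those niacin cells were remaining members, and the others were S100-rich or T-marked. Without the deepest niacin 1 cell, which left 4 remaining members there, 15 of 22 and 6 of 7 were lower. Without any cell marked by another lineage, 1 and 3 niacin members were left, and 1 of 22 and 0 of 7 were lower.

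The promoters of 3 of the lower interferon genes are printed because GAAANNGAAA, an interferon-stimulated response element core, lies in them. The window runs from 250 bases before to 50 after the start (RefSeq, GRCm38.p6), both strands were searched, and capitals mark the matches. Gbp2 lies at chr3:142620413-142620712 (plus strand), Gbp5 at chr3:142496684-142496983 (plus strand) and Isg15 at chr4:156200769-156201068 (minus strand, with 3 overlapping matches).
Gbp2: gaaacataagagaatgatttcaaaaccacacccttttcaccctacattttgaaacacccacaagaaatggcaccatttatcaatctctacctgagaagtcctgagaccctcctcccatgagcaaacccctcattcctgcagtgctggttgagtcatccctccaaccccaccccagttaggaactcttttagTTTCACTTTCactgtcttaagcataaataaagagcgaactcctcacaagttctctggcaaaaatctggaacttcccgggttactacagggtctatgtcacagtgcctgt
Gbp5: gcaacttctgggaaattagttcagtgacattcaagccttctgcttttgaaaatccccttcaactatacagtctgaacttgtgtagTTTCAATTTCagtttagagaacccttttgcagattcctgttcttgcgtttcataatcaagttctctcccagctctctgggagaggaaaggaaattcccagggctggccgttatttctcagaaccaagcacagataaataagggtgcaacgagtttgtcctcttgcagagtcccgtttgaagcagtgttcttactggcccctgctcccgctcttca
Isg15: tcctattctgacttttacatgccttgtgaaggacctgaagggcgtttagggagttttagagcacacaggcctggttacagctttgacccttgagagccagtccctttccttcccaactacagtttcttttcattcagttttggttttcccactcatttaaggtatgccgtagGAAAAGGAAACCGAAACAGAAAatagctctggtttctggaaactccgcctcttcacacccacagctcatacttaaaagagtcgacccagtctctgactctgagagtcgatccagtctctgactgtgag
In Gbp2 and Gbp5 the match lies on the opposite strand. The motif was found in 3.44% of all 32851 promoters, in 10 of the 18 interferon list genes with a promoter, in 0 of 7 MHC class II genes and in 0 of 6 neutrophil genes. TTCNNNGAA, the core of a STAT site, lay in 8.30% of all promoters, 6 of 18 interferon genes, 1 of 7 class II genes and 0 of 6 neutrophil genes. TTGCNNAA, a C/EBP half-palindrome, lay in 10.8% of all promoters, 1 of 18 interferon genes, 0 of 7 class II genes and 4 of 6 neutrophil genes. No GAAANNGAAA match lay in the Cxcl9 window.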

How the data were processed

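Live cells of brain tumour sections were profiled on the 10x Chromium 3′ v3.1 platform. Per the submitters' processing notes the reads were aligned with STAR in Cell Ranger 3.1, and the genome was mm10. The authors deposited filtered matrices of UMI counts per gene and barcode (31053 genes), unnormalised. The series' methods name 5 control mice in 1 replicate and 10 niacin mice in 2, while the labels speak of 4 brain tissues pooled per sample. Nothing in the labels pairs the libraries. The p-values rest on at most 3 libraries, and on 2 in the comparison with dendritic-like cells. The quasi-likelihood fit of edgeR moderates the spread of each gene over all genes. Very small p-values therefore reflect this shared spread as well as that between so few libraries.

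Cells were selected as stated at the start, and the members and gene lists were chosen with earlier results of these data known. S100a8/S100a9-rich and T-marked cells were set apart after the data were seen. No doublet caller was run. UMIs were summed per gate and library (at least 10 cells, or 5 in fits of the remaining members) and fitted with edgeR 4.0.16 in R 4.3.3 (TMM, filterByExpr, library block, Benjamini-Hochberg adjustment, threshold 0.05), without the genes of the gates. DESeq2 1.42.0 served as an alternative. Named genes were the 10 with the largest change in each direction among those past the threshold, in the same direction in every library and at 50 CPM or more on average in either gate. For niacin against vehicle they were the 10 with the largest smaller ratio, and for Arg1 the 10 largest. Klf2, Ldha, Bnip3, Nos2 and other list members were named from the lists. Gene positions are those of GENCODE M21 (mm10). A library with 0 UMIs was set to 3 counts for a bound on a fold. The scripts were tested on simulated data. The depth per library and its intervals are given above, and PCR and capture are not covered by them. Single values of some list genes are not reported here.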

Additional observations from a re-analysis of the deposited data

Results flagged for a closer look

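F13a1 went opposite ways in niacin in 2 sets of cells of the same libraries. In the nonclassical gate it stood at 115 CPM in the vehicle control library, 52.5 in niacin 1 and 29.1 in niacin 2 (all 50 cells there, 30.6 over the 49 left without S100-rich and T-marked cells), a log2 ratio of -1.13 for niacin 1 over vehicle. In the remaining members it stood at 198, 1007 and 1007 CPM, a log2 ratio of 2.34 for both. Every niacin library moved one way in one set and the opposite way in the other, and the difference was not tested.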

How the results depend on the processing

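No paired analysis was possible because niacin and vehicle control libraries share only replicate number 2. Between gates, the library served as the block. Without the replicate block the members against nonclassical monocytes gave 7 genes higher, and against dendritic-like cells 0 and 0. Leaving out 1 library gave 3 to 187 genes higher and 0 to 143 lower against nonclassical monocytes, and 954 to 1326 higher and 765 to 1140 lower against microglia. For niacin, leaving out 1 niacin library gave 278 to 280 higher and 1646 to 2142 lower. Against nonclassical monocytes, higher and lower genes numbered 48 and 84 with at most 10% mitochondrial UMIs, 365 and 254 without a gene filter, 133 and 153 with no shared barcode removed, 10 and 13 after thinning to 2000 UMIs, and 87 and 145 with the remaining members. DESeq2 gave 88 higher, leaving out the 5% deepest cells 45 higher, and removing every shared barcode 15 lower. With the remaining members, leaving out the vehicle control library gave 171 and 238, and leaving out niacin 2 gave 82 lower. Against dendritic-like cells they numbered 5 and 0 with at most 10% mitochondrial UMIs, 24 and 5 by DESeq2, 137 higher without a gene filter, 116 and 68 with no shared barcode removed, 0 and 0 after thinning, and 5 and 0 without the deepest cells. Each 0 is by edgeR, with 77 and 54 (no block), 36 and 27 (thinned), 198 and 140 (10% mitochondrial; higher and lower) and 150 and 125 (deepest cells left out) at an unadjusted p under 0.05, and with 197 lower genes for the 0 against nonclassical monocytes. Against microglia they numbered 589 and 521 with every shared barcode removed, 364 and 549 after thinning, and 624 and 736 with the remaining members without the vehicle control library. For niacin, higher and lower genes numbered 77 and 231 with every shared barcode removed, 59 and 286 after thinning, 123 and 574 at 3-fold, and 45 and 130 by edgeR over the remaining members' 3 sums. At least 60 UMIs gave 116 higher. With TMM they numbered 74 and 692 over the remaining members and 825 lower over all members. Lower genes numbered 457 with the remaining members, 282 without their deepest niacin 1 cell, 256 by edgeR over all members and 30 without cells marked by another lineage. With the remaining members and every shared barcode removed they numbered 115 and 33. The shares of cells were 7.52%, 0.405% and 0.857% with every shared barcode removed, 2.43% in niacin 1 and 2.50% in niacin 2 with none removed, 13.8% in the vehicle control library and 0.796% in niacin 2 without cells of other lineages, and 0.354% and 0.690% in niacin with the remaining members.

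In the remaining members 2 genes changed sign, Retnlg without niacin 1 against nonclassical monocytes (-0.82, with leave-one-out values up to 9.26) and Camp without the vehicle control library against microglia (-0.30), and Cd24a did so against dendritic-like cells without the replicate block (0.26). The cause was not tested. Among the single genes, 150 values lost a call, 14 gained one and 1018 kept their direction and side. Dendritic-like cells with every shared barcode or a library left out, gates without cells of other lineages and the Ly6c2 split could not be fitted. Depth limits the niacin values, since 5 and 11 remaining members hold 62555 and 89414 UMIs against 932914.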

Other observations

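Cells with at least 10% of UMIs from S100a8 and S100a9 numbered 88 over all cells, 11 in the vehicle control library, 36 in niacin 1 and 41 in niacin 2. Of these, 63 had no Csf1r UMI and so did not enter the members.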
